A study of Homo sapiens with 65 samples.

Results

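Left-ventricular cardioids are self-organising aggregates of early heart cells grown from human pluripotent stem cells. The comparison described here set 3 RNA-seq libraries of cardioids kept with hyaluronidase from day 1.5 to day 4.5 (HAse1.5) against 3 libraries of untreated cardioids of day 4.5. These are 6 of the 65 libraries of the series, chosen by their sample titles. All 6 are labelled WTC-11, a human induced pluripotent line, with genotype WT, and 8 cardioids were pooled for each library. Each group held 1 library of each of 3 lines named TNNI1, WT and TNNT2, so untreated and treated libraries share their lines. The meaning of the line names TNNI1 and TNNT2, which are also names of troponin genes, is not given in the sources used here, and all 3 lines go back to 1 donor line. Both groups were induced to mesoderm with FGF2, Activin A, BMP4, the PI3-kinase inhibitor LY294002 and the WNT agonist CHIR99021. At day 1.5 both were dissociated, reseeded as aggregates and patterned with BMP4, FGF2, insulin, the WNT secretion inhibitor C59 and retinoic acid. The dose and source of the enzyme, and any vehicle given to untreated cardioids, are not given in the sources used here. For comparison, the text uses 3 untreated and 3 HAse1.5 libraries of the same lines at days 2.5 and 7.5, and 3 libraries with hyaluronidase from day 2.5 (HAse2.5) at day 4.5. It also uses 6 libraries labelled WT and 6 labelled HAS2-KO at day 4.5, and 6 labelled WT at day 2.5. The 6 HAS2-KO libraries came from 4 clones, with 3 libraries from the clone cl4. Among the WT libraries of each of these days the lines named WT and WT_TU occur more than once. Fits of the WT and HAS2-KO libraries took each library as separate, with no term for line or clone.

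Hyaluronan is an unbranched sugar polymer of the extracellular matrix that hyaluronan synthases, chiefly HAS2 in the embryo, spin out at the cell surface. Versican and the link protein HAPLN1 bind it into a hydrated gel, the cardiac jelly of the early heart, and cells sense it through receptors such as CD44. Hyaluronidase cuts the polymer into fragments. During the days compared here, cardiac mesoderm cells that carry factors such as ISL1, HAND2 and TBX5 begin to assemble sarcomeres, the repeating units of thick myosin and thin actin filaments held together at the Z-disc.

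Total counts of the 6 libraries ranged from 1126042 to 1718211, and 16682 to 18295 genes had at least 1 count. Mitochondrial genes took 0.452% to 0.554% of counts in untreated and 0.411% to 0.552% in HAse1.5 libraries. On the first principal component of the 9 day 4.5 libraries of the enzyme arm (500 genes, 46.5% of variance), untreated libraries lay at −23.0, −17.3 and −15.5 in lines TNNI1, WT and TNNT2. The HAse1.5 libraries lay at 36.3, 7.97 and 25.2, so the treated library of line WT lay nearer to the untreated ones than the other treated libraries did. Libraries are 3′ tag libraries, in which a read marks a transcript's end, and values below are CPM (counts scaled to the same total in every library). Nothing in the labels says that the libraries came from separate differentiations, so p-values measure only a spread between libraries. Unless stated otherwise, that spread was estimated over all 24 libraries of the enzyme arm, not over these 6 alone.

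Of 12748 genes tested with edgeR's quasi-likelihood test, 443 (3.48%) passed an adjusted p of 0.05 (Benjamini-Hochberg). With hyaluronidase 136 genes (1.07%) were higher and 307 (2.41%) lower. The median log2 fold change of all tested genes was 0.02. The direction was the same in 3 of 3 lines for 133 of the 136 higher and 299 of the 307 lower genes. The size differed between lines: the median difference in log2 CPM of the lower genes was −2.02 in line TNNI1, −1.13 in line WT and −1.56 in line TNNT2, and line WT had the smallest difference for 195 of the 307. For the higher genes the medians were 1.92, 1.20 and 1.64. The count moved with single libraries: it was 199 without the HAse1.5 library of line TNNI1, 208 without that of line TNNT2, 204 without the untreated library of line TNNI1, 312 and 311 without the untreated libraries of lines WT and TNNT2, and 487 without the HAse1.5 library of line WT. In all 6 fits that left out 1 library, 102 genes stayed lower and 28 stayed higher. Cardioids were sequenced whole, so fewer cells of a type and less RNA per cell cannot be told apart.

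**Figure D1:**
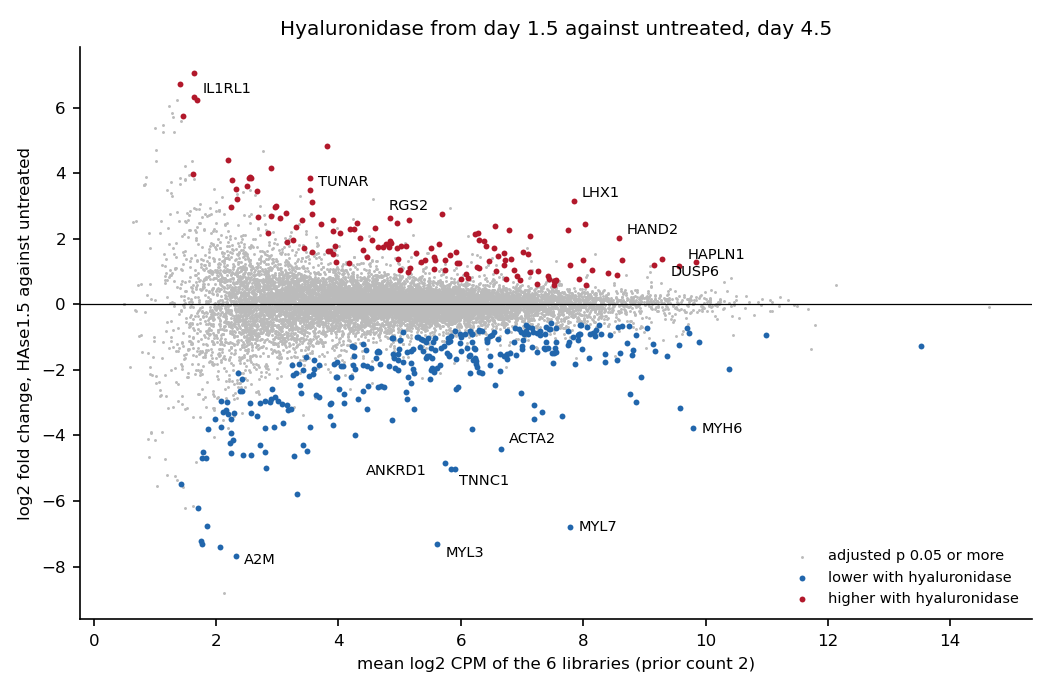
Log2 fold change of each of the 12748 tested genes (y axis, HAse1.5 against untreated at day 4.5) against its mean log2 CPM in the 6 libraries (x axis); blue points are the 307 genes lower and red points the 136 genes higher at an adjusted p under 0.05. Among abundant genes MYL7 lies at −6.78 and LHX1 at 3.16; fitted values of genes with no count in 1 group depend on the prior count.

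The label of heart tissue was checked against 10 cardiomyocyte markers, and all 10 were present. Summed over these markers, the untreated libraries held 23642 to 46848 CPM and the HAse1.5 libraries 5067 to 18614 CPM. With hyaluronidase 8 of the 10 fell and the median log2 fold change was −2.66. In a fit of the 6 libraries alone 3 of the 10 passed. Of 11 tested fibroblast and mural markers ACTA2, TAGLN and CNN1, which also mark smooth muscle, fell and RGS5 rose; their summed level was 2531 to 3237 CPM in untreated and 1493 to 2748 CPM in HAse1.5 libraries. None of 8 tested endothelial and blood markers passed edgeR's test or DESeq2's (1 at an unadjusted p under 0.05), and their summed level was 141 to 188 CPM in untreated and 191 to 206 CPM in HAse1.5 libraries, with GATA1 and HBE1 at 0 in all 6. Of 6 tested pluripotent cell markers L1TD1 rose, and the sums were 263 to 389 and 299 to 500.2 CPM. Of 9 tested endoderm and liver-type markers APOA1, the main protein of high-density lipoprotein, fell; the sums were 87.03 to 308 and 24.2 to 114 CPM. Of 2 tested epicardial markers WT1 fell, though its groups overlapped in CPM, with UPK3B and MSLN at 0 in all 6 libraries. The sums of the epicardial markers were 64.8 to 105 CPM in untreated and 60.2 to 85.6 CPM in HAse1.5 libraries. Of 3 tested neural and 2 tested paraxial mesoderm markers none passed edgeR's test (1 neural marker at an unadjusted p under 0.05, and 1 called by DESeq2). With the line as a block 5 fibroblast and mural, 2 endoderm and 1 neural marker were lower. The part of these cell types in the results below was not tested. The call of L1TD1 was lost without either library of line TNNI1 or the untreated library of line WT or TNNT2 (adjusted p up to 0.165). That of APOA1 was lost without either library of line TNNI1 or the HAse1.5 library of line TNNT2 (up to 0.177), and that of WT1 without any 1 library except the untreated one of line TNNI1 (up to 0.187).

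Calls of some genes named in the text were also lost under other fits of the same comparison. Fits of the 6 libraries alone filtered genes on those libraries, so some named genes were not tested in them. Such genes are not listed as lost, so a gene missing from these lists did not always keep its call. A fit of the 6 libraries alone called 305 genes and lost ACTC1, ANKRD1, APOA1, CKM, COL6A1, COL8A1, DSP, FGFR1, FHL2, GATA3, GPC3, ITGA7, L1TD1, LHX1, LHX1-DT, MYBPC3, MYH6, MYL3, MYL4, NR2F2, POPDC3, SDC3, SEMA3C, SFRP1, SLC8A1, SPRY4 and TNNT2 (adjusted p up to 0.383). The same fit with the line as a block called 290 and lost ACTA2, ACTC1, ACTN2, APOA1, ATP2A2, BMP4, BVES, CNN1, COL8A1, CYCS, DSP, FGFR1, GATA3, ITGA7, MYBPC3, MYH6, MYL4, NR2F2, POPDC3, SDC3, SLC8A1, SYNPO2L and TNNT2 (up to 0.307). Without the filter on low counts BMP4, COL6A1, GATA3, ISL1, L1TD1, SFRP1 and TNNT2 were lost (up to 0.0985), and with DESeq2 NPPB and WT1 (up to 0.341).

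Genes of the thick filament were among those that fell furthest. Of 12 tested genes of myosin and its M-band and binding proteins 9 were lower and none higher, with a median log2 fold change of −3.53 against 0.02 over all genes. All 12 point estimates were below 0, and in 8 of them every HAse1.5 library lay below every untreated library, as for 8.87% of all tested genes. MYL7, the regulatory light chain of atrial and early cardiac myosin, had 4688, 1409 and 1590.5 CPM in the untreated libraries of lines TNNI1, WT and TNNT2 and 16.8, 44.9 and 15.1 CPM in the HAse1.5 libraries of the same lines. The highest treated library, that of line WT, lay far below the lowest untreated one, and the log2 fold change was −6.78 (SE 0.85, adjusted p 0.000193). MYL3, an essential light chain of ventricular myosin, had 1384, 229 and 337 CPM in untreated and 6.21, 5.19 and 1.75 CPM in treated libraries. The groups did not overlap, although the untreated library of line TNNI1 held several times more than the other untreated ones, and the log2 fold change was −7.32 (SE 1.06, adjusted p 0.000688). MYL3 overlaps PTH1R on the opposite strand, and whether the counting used strand is not given in the sources used here. MYOM1, the myomesin that ties thick filaments together at the M-band, had 678, 205 and 209 CPM untreated and 7.45, 21.6 and 8.15 CPM treated (log2 fold change −5.03, SE 0.62, adjusted p 0.000141).

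The myosin heavy chain of the early heart, MYH6, had 6218, 3654 and 3164 CPM in untreated and 69.5, 770.1 and 162 CPM in HAse1.5 libraries. The treated library of line WT kept the most and that of line TNNI1 the least, and the groups did not overlap (log2 fold change −3.78, SE 0.68, adjusted p 0.00433). MYBPC3, cardiac myosin-binding protein C, followed the same order of libraries, with 904, 395 and 406 CPM untreated and 23.6, 120.1 and 47.1 CPM treated (log2 fold change −3.27, SE 0.42, adjusted p 0.000141). MYL4, the atrial essential light chain, had a log2 fold change of −2.74 (SE 0.52, adjusted p 0.00416). MYH7, the heavy chain of the mature ventricle, had 19.1, 5.33 and 26.4 CPM untreated and 0.621, 0 and 1.16 CPM treated, lower by a ratio of counts of 26.7 (95% counting interval 8.79 to 133; adjusted p 0.00433). Calls of these 7 myosin and M-band genes held in all 6 fits without 1 library, but in a fit of the 6 libraries alone 2 of the 12 passed. MYL2, the ventricular regulatory light chain, had no count in the 6 libraries.

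The upstream sequences of 3 genes that fell show what lies before the start of these genes. They are the genes with the lowest adjusted p among the 12 furthest-falling genes that have an entry in the RefSeq promoter table (GRCh38.p14), in which A2M and TNNC1 had none. Each is the 250 bases before the transcription start, 5′ to 3′ on the gene's strand. Capitals mark matches, on either strand, to AGATAA (bound by GATA factors), CATTCC (bound by TEAD factors), TATAAA (the TATA box) and the CArG box (bound by SRF); no 2 matches overlapped.
MYOM1, chr18:3219969-3220218, minus strand: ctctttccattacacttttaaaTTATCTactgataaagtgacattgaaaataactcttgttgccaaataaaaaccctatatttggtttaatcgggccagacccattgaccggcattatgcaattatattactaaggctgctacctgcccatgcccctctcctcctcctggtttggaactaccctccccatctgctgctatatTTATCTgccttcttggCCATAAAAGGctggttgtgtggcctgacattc
MYL7, chr7:44141333-44141582, minus strand: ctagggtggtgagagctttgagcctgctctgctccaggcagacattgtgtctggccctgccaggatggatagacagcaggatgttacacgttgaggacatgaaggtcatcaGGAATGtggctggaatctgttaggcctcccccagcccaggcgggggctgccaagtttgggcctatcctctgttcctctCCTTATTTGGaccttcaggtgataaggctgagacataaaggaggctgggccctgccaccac
MYL3, chr3:46861685-46861934, minus strand: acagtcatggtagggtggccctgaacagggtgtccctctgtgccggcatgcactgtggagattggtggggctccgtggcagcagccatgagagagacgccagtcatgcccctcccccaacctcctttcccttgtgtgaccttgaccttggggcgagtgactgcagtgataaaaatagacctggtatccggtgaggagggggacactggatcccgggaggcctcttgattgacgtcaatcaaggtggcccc
MYOM1 held 2 matches to AGATAA and 1 CArG box, MYL7 held 1 match to CATTCC and 1 CArG box, and MYL3 held none in this window or in the window of its second annotated start. Over 35116 windows of all genes, CATTCC was in 11.9%, AGATAA in 9.17%, TATAAA in 10.7% and the CArG box in 1.16%. Over 387 windows of genes that fell the shares were 14.7%, 7.75%, 10.1% and 3.88%, and over 192 windows of genes that rose 7.81%, 13.02%, 9.38% and 0 windows. The tested members of 4 contractile lists (thick filament, thin filament, Z-disc and smooth-muscle-type actin) had 67 windows, with shares of 28.4%, 16.4%, 19.4% and 20.9% in the same order. Over the 46 windows of the members that fell they were 30.4%, 17.4%, 17.4% and 19.6%. Windows of 1 gene can overlap, the CArG box was added to the search after the values were seen, and no test was made.

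Of 11 tested thin filament genes 6 fell and none rose (median log2 fold change −1.39). The troponin genes differed from each other. TNNC1, the calcium-binding troponin, had 679, 185 and 172 CPM in untreated libraries and 7.45, 16.4 and 11.1 CPM in HAse1.5 libraries, with no overlap (log2 fold change −5.01, SE 0.69, adjusted p 0.000349). TNNT2, the tropomyosin-binding troponin used as a cardiomyocyte marker, had 4778, 2828 and 2303 CPM untreated and 237, 1866 and 544 CPM treated. The treated library of line WT lay close below the untreated range, and the log2 fold change was −1.98 (SE 0.49, adjusted p 0.0277). TNNI1, the slow inhibitory troponin, had 1503, 1085 and 1072 CPM untreated and 229, 1203 and 613 CPM treated, so the groups overlapped through line WT; the log2 fold change was −0.92 (SE 0.46, adjusted p 0.402). ACTC1, cardiac alpha-actin, had 3842, 2017 and 2003 CPM untreated and 129, 583 and 223 CPM treated (log2 fold change −3.16, SE 0.55, adjusted p 0.00231). The list's count was 2 of 11 in a fit of the 6 libraries alone, and also in each of 3 fits, without the HAse1.5 library of line TNNI1, without that of line TNNT2, and without the untreated library of line TNNI1. In the same 3 fits the call of TNNT2 was lost (adjusted p up to 0.173), while those of TNNC1 and ACTC1 held.

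Genes of the Z-disc and of intermediate filaments, which anchor thin filaments and link sarcomeres, fell in 10 of 17 and rose in none (median log2 fold change −2.08 with genes of 3 or fewer counts in 1 group at their bound or ratio of counts, and −2.45 as fitted). ACTN2, the alpha-actinin that crosslinks actin at the Z-disc, had 245, 99.5 and 125 CPM untreated and 14.3, 33.7 and 36.1 CPM treated. All treated libraries lay below all untreated ones (log2 fold change −2.58, SE 0.42, adjusted p 0.0013). SYNPO2L, an actin-binding protein of the Z-disc, went from 382, 221 and 273 CPM to 7.45, 42.3 and 19.2 CPM (log2 fold change −3.79, SE 0.60, adjusted p 0.0011). NEXN, nexilin, fell less, with 969.8, 699.8 and 611 CPM untreated and 222, 403 and 293 CPM treated (log2 fold change −1.40, SE 0.24, adjusted p 0.0013). FHL2, a LIM-domain protein of the sarcomere, had 95.5, 30.2 and 17.4 CPM and 6.83, 5.19 and 2.33 CPM (log2 fold change −3.42, SE 0.60, adjusted p 0.00189). These 4 calls held in all 6 fits without 1 library; the list's count was 5 without the HAse1.5 library of line TNNT2, 6 without the untreated library of line TNNI1, and 3 in a fit of the 6 libraries alone.

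**Figure D2:**
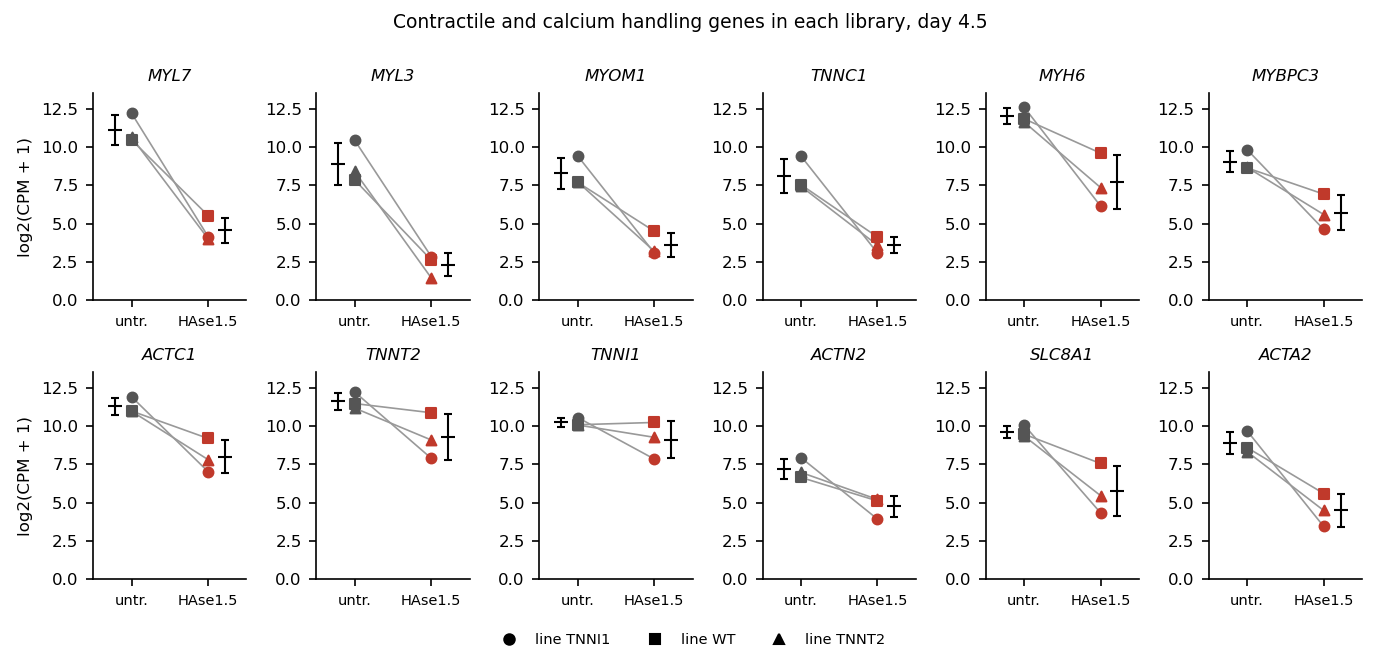
Log2(CPM + 1) of 12 contractile and calcium handling genes in the 3 untreated (grey) and 3 HAse1.5 (red) libraries of day 4.5, with libraries of the same line joined; bars beside the points give the mean and SD of each group. MYL7, MYL3 and TNNC1 fell in every line, whereas TNNI1 overlapped between the groups through line WT.

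Of 13 tested calcium handling genes 5 fell and none rose (median log2 fold change −1.58). SLC8A1, the sodium-calcium exchanger of the cardiomyocyte membrane, had 1076, 709.6 and 654 CPM in untreated and 19.2, 188 and 43.1 CPM in HAse1.5 libraries. Treated libraries lay below untreated ones in every line, least so in line WT (log2 fold change −3.40, SE 0.54, adjusted p 0.00111). ATP2A2, the calcium pump of the sarcoplasmic reticulum, fell less, from 458, 265 and 273 CPM to 138, 204 and 139.7 CPM (log2 fold change −1.14, SE 0.21, adjusted p 0.00244). CACNB2, a subunit of the voltage-gated calcium channel, had 32.8, 14.2 and 25.04 CPM and 2.48, 0.864 and 2.33 CPM (log2 fold change −3.64, SE 0.59, adjusted p 0.000688). RYR2, the calcium release channel, had 923, 686 and 635 CPM untreated and 68.9, 502 and 222 CPM treated. Its groups were apart but the treated libraries spread widely, and it did not pass the test (log2 fold change −1.58, SE 0.53, adjusted p 0.123). The list's count ranged from 3 without the untreated library of line TNNI1 or the HAse1.5 library of line TNNT2 to 8 without the HAse1.5 library of line WT, and was 3 in a fit of the 6 libraries alone.

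Of 11 tested genes of ion channels and conduction 4 fell, among them POPDC2, POPDC3 and BVES, the members of the Popeye family, cyclic AMP-binding proteins of the muscle membrane. POPDC2 had 91.4, 29.3 and 22.3 CPM untreated and 4.34, 0.864 and 1.16 CPM treated (log2 fold change −4.48, SE 0.72, adjusted p 0.00105), and its call held in all 6 fits without 1 library. It overlaps COX17 on the same strand. The log2 fold changes of POPDC3 and BVES were −1.88 and −2.45. Both calls were lost without either library of line TNNI1 or without the HAse1.5 library of line TNNT2, where the list's count was 1 (adjusted p up to 0.169 and 0.237). HCN4, the main pacemaker channel of the embryonic heart, had 64.8, 49.7 and 35.5 CPM and 11.2, 35.4 and 14.6 CPM, with groups apart, and did not pass (log2 fold change −1.41, SE 0.71, adjusted p 0.397).

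Genes of the dystrophin complex and of muscle cell junctions fell in 4 of 13 (median log2 fold change −0.76). CDH2, N-cadherin, which joins cardiomyocytes at their ends, had 739, 695 and 634 CPM in untreated and 186, 283 and 209 CPM in HAse1.5 libraries. The 3 lines agreed closely (log2 fold change −1.69, SE 0.24, adjusted p 0.000193), and the call held in all 6 fits without 1 library. The desmosome genes PKP2 (log2 fold change −1.06) and DSP (−0.87) also fell. Their calls were lost without either library of line TNNI1, the untreated library of line WT or either library of line TNNT2 (adjusted p up to 0.178 and 0.218). In those fits the list's count was 1 or 2, and it was 2 in a fit of the 6 libraries alone.

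Genes of chamber identity and the natriuretic peptides fell in 4 of 9, among them NPPB, MYL7 and NR2F2 (1 lower and 1 higher in a fit of the 6 libraries alone). NPPB, the B-type natriuretic peptide, had 28.7, 3.55 and 11.8 CPM untreated and no count in the HAse1.5 libraries, which makes it at least 23.4-fold lower against 3 counts over the treated group (adjusted p 0.0472). That call was lost in 5 of the 6 fits without 1 library, all but the one without the untreated library of line WT (adjusted p up to 0.19). NPPA, the A-type peptide, had 107, 1.78 and 6.26 CPM and none treated; the untreated lines differed widely and it did not pass the test (adjusted p 0.109), but it passed with the line as a block (adjusted p 0.00254). NR2F2, a nuclear receptor of atrial identity, had 18.4, 33.7 and 86.2 CPM and 9.31, 0.864 and 6.98 CPM (log2 fold change −2.998, SE 0.60, adjusted p 0.00448). Its groups did not overlap, and the call was lost without the untreated library of line TNNT2 (adjusted p 0.0535).

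The cardiac transcription factors moved in both directions: of 22 tested, HAND2 and ISL1 rose, 2 fell, TBX5 among them, and 18 did not pass (median log2 fold change −0.02). With the line as a block 4 fell, and in a fit of the 6 libraries alone 1. HAND2, a bHLH factor of the second heart field and right ventricle, had 177, 148 and 267 CPM in untreated and 781, 629 and 1150.0 CPM in HAse1.5 libraries. Every treated library was well above every untreated one, in line WT as in the others (log2 fold change 2.03, SE 0.38, adjusted p 0.00334). ISL1, a marker of second heart field progenitors, had 45.7, 73.7 and 96.7 CPM and 306, 203 and 449.9 CPM (log2 fold change 2.07, SE 0.48, adjusted p 0.0174). TBX5, a T-box factor of the first heart field and left ventricle, fell from 226, 177 and 199.6 CPM to 51.5, 109.8 and 41.9 CPM (log2 fold change −1.66, SE 0.30, adjusted p 0.0021). NKX2-5, an early cardiac homeobox factor, had 519, 362 and 231 CPM and 181, 351 and 276 CPM, with overlapping groups (log2 fold change −0.55, SE 0.36, adjusted p 0.594). The calls of HAND2 and TBX5 held in all 6 fits without 1 library. That of ISL1 was lost without either library of line TNNI1, the untreated library of line WT or the HAse1.5 library of line TNNT2 (adjusted p up to 0.12).

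Cytoskeletal genes of the smooth muscle type, many of them targets of SRF and its coactivator MRTF, fell in 10 of 17 and rose in none (median log2 fold change −0.95). ACTA2, smooth muscle alpha-actin, which early cardiomyocytes also make, had 824, 385 and 321 CPM in untreated and 9.93, 47.5 and 21.5 CPM in HAse1.5 libraries (log2 fold change −4.41, SE 0.56, adjusted p 0.000147). It overlaps FAS and STAMBPL1 on the opposite strand. TAGLN, transgelin, had 108, 94.1 and 79.3 CPM and 8.69, 6.91 and 9.89 CPM, with little spread between lines (log2 fold change −3.51, SE 0.45, adjusted p 0.0001). MYL9, a light chain of smooth muscle and non-muscle myosin, had 772, 432 and 312 CPM and 50.9, 51.9 and 41.3 CPM (log2 fold change −3.49, SE 0.49, adjusted p 0.000328). CNN1, calponin, had a log2 fold change of −2.51 (SE 0.43, adjusted p 0.00145). These 4 calls held in all 6 fits without 1 library; the list's count was 6 without the HAse1.5 library of line TNNT2. ACTA2, TAGLN and CNN1 also stand in the list of fibroblast and mural markers, in which 5 fell with the line as a block. Its other called member RGS5, a regulator of G-protein signalling of pericytes, was higher: 388, 450.2 and 332 CPM untreated and 658, 1151 and 1014 CPM treated (log2 fold change 1.19, SE 0.25, adjusted p 0.00647).

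Of 18 tested genes listed as targets of YAP and TEAD, the factors that read tension and contact, 4 fell and none rose, but the list's median log2 fold change was −0.20 (7 fell with DESeq2). CCDC80, a secreted matrix protein, had 682, 1300.1 and 1442 CPM in untreated and 158, 371 and 243 CPM in HAse1.5 libraries (log2 fold change −2.22, SE 0.40, adjusted p 0.00258), and its call held in all 6 fits without 1 library. ANKRD1, an ankyrin-repeat protein of the sarcomere, had 429, 318 and 372 CPM and 32.9, 0.864 and 5.82 CPM. Its groups were far apart, though the treated libraries spread over more than the untreated ones (log2 fold change −4.83, SE 1.13, adjusted p 0.0225). CCN2, a secreted matricellular protein, had 6.82, 12.4 and 13.2 CPM and 1.24, 0 and 0.582 CPM, lower by a ratio of counts of 15.96 (95% counting interval 5.11 to 80.4; adjusted p 0.0131). AMOTL2, a YAP-binding junction protein, had a log2 fold change of −1.63 (SE 0.38, adjusted p 0.0154). The call of ANKRD1 was lost without the untreated library of line TNNI1 or the HAse1.5 library of line WT or TNNT2 (adjusted p up to 0.128). Without the HAse1.5 library of line TNNT2 CCN2 and AMOTL2 were lost too (up to 0.0813 and 0.126; AMOTL2 also without the HAse1.5 library of line TNNI1 or the untreated library of line TNNT2) and the list's count was 1.

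**Figure D3:**
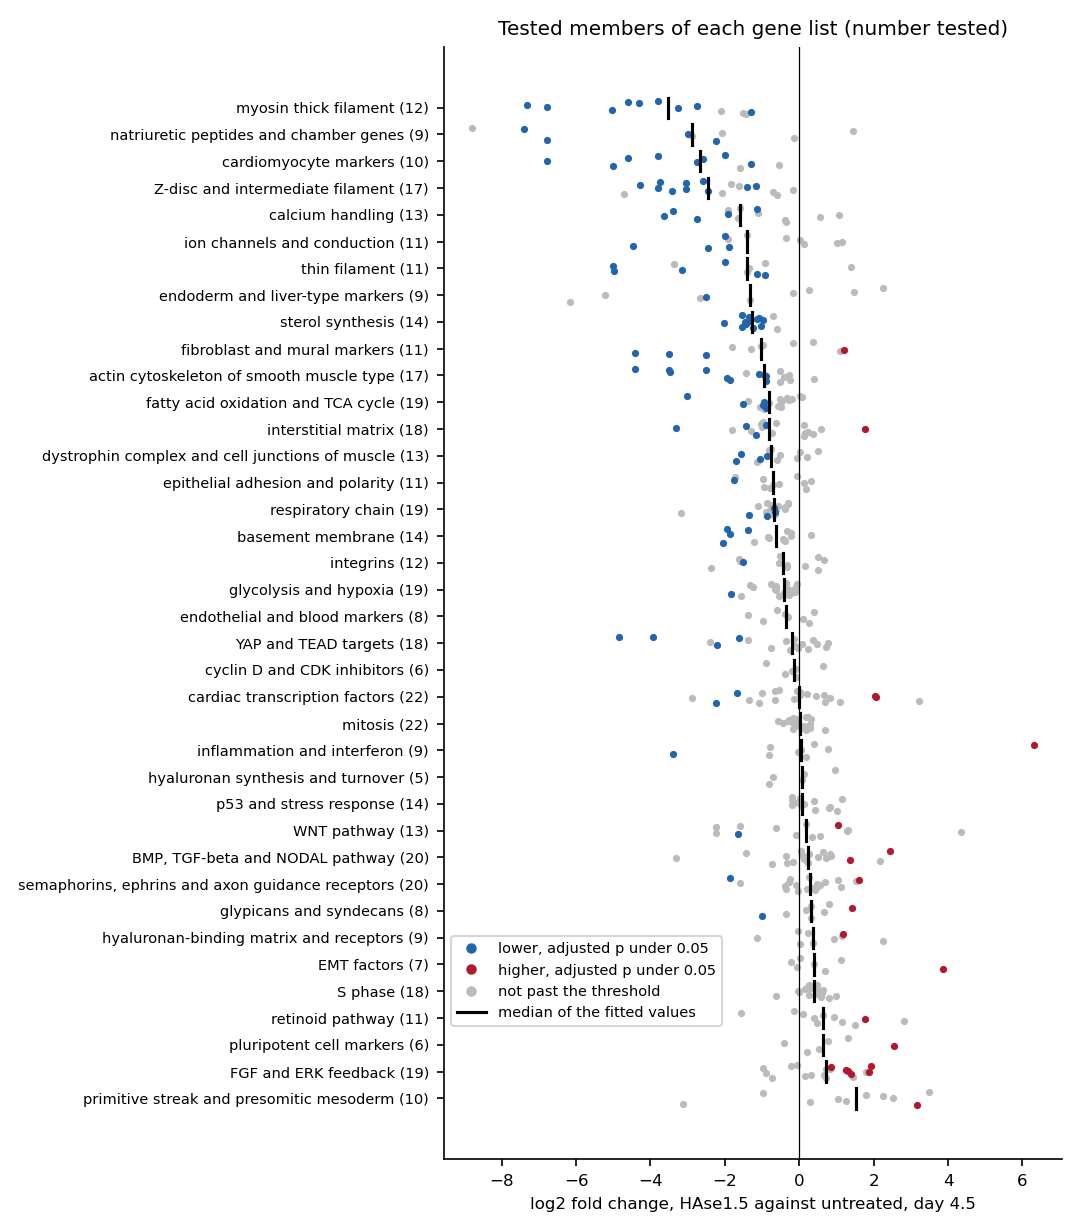
Log2 fold change (x axis, HAse1.5 against untreated at day 4.5) of every tested member of each gene list with at least 5 tested members; blue and red points passed an adjusted p of 0.05, grey points did not, and the bar is the median of the fitted values. The thick filament list has the lowest median, sterol synthesis genes lie close together near their median of −1.28, and FGF and ERK feedback genes lie to the right.

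Genes that make or break down the polymer did not pass the test. Of the 11 genes of hyaluronan synthesis and turnover 5 could be tested and none passed edgeR's test, with 3 at an unadjusted p under 0.05 and 1, HAS2, called by DESeq2. HAS2, the synthase, had 459, 398 and 331 CPM in untreated and 893, 862 and 711 CPM in HAse1.5 libraries. All treated libraries were above all untreated ones, and the log2 fold change was 0.97 (SE 0.29, adjusted p 0.0639), with a 95% interval of 0.38 to 1.56. With the line as a block the adjusted p was 0.0464. The log2 fold changes of UGDH and UGP2, which make sugar nucleotides for the polymer, were 0.14 and −0.72, and those of HYAL2 and CEMIP2, which take part in its breakdown, were 0.07 and −0.83 (adjusted p 0.931, 0.0984, 0.983 and 0.139). CEMIP2 passed with the line as a block (adjusted p 0.0319). HAS1 had no count in the 6 libraries. Of 9 tested hyaluronan-binding proteins and receptors HAPLN1 rose. HAPLN1, the link protein that locks proteoglycans onto hyaluronan, had 427, 504 and 636 CPM and 1113, 1008 and 1619 CPM, with no overlap (log2 fold change 1.18, SE 0.23, adjusted p 0.00382), and the call held in all 6 fits without 1 library.

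Other matrix genes fell more often than they rose. Of 14 tested basement membrane genes 4 fell and none rose (7 without the filter on low counts; median log2 fold change −0.62). LAMA1, a laminin chain of the early embryo, had 121, 197 and 199 CPM untreated and 45.3, 61.4 and 43.7 CPM treated (log2 fold change −1.86, SE 0.24, adjusted p 0.0001). COL18A1, a basement membrane collagen, had 243, 194 and 197 CPM and 33.5, 89.9 and 41.9 CPM (log2 fold change −2.04, SE 0.36, adjusted p 0.00199). COL4A1, a chain of the collagen IV network, had 32.1, 50.6 and 48.7 CPM and 15.5, 12.1 and 8.15 CPM (log2 fold change −1.95, SE 0.36, adjusted p 0.00199). For all 3 the groups did not overlap and the call held in all 6 fits without 1 library. COL4A1 lies head to head with COL4A2, which also fell (log2 fold change −1.38; lost without the HAse1.5 library of line TNNI1 or WT or the untreated library of line TNNT2, adjusted p up to 0.111). Of 18 tested interstitial matrix genes COL5A1, COL6A1, COL6A3 and SPARC fell and COL8A1 rose (median −0.81). The groups of COL8A1 overlapped. Of the 6 fits without 1 library, only that without the HAse1.5 library of line TNNI1 had a higher call in this list. That list had 7 lower calls with the line as a block, 1 without the untreated library of line WT or TNNT2, and none without the HAse1.5 library of line TNNI1 or TNNT2. Among 8 tested glypicans and syndecans, cell-surface heparan sulphate proteoglycans, GPC3 rose from 19.1, 41.7 and 29.2 CPM to 51.5, 125 and 77.4 CPM (log2 fold change 1.43, SE 0.38, adjusted p 0.0366). SDC3 fell from 66.9, 41.7 and 56.3 CPM to 24.8, 31.98 and 30.8 CPM (log2 fold change −1.003, SE 0.28, adjusted p 0.0443). Both were lost without the untreated library of line TNNI1 or TNNT2 or the HAse1.5 library of line WT or TNNT2, and SDC3 also without the HAse1.5 library of line TNNI1 (adjusted p up to 0.216 and 0.252).

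KRT18, a simple-epithelial keratin that the early heart also makes, had 566, 629.6 and 649 CPM in untreated and 241, 199.6 and 137 CPM in HAse1.5 libraries. No treated library reached the untreated range (log2 fold change −1.75, SE 0.27, adjusted p 0.000328), and the call held in all 6 fits without 1 library. It was the only 1 of 11 tested genes of epithelial adhesion and polarity that passed. KRT18 overlaps KRT8 on the opposite strand.

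Signalling genes rose more often than they fell. Of 19 tested genes of FGF signalling and ERK feedback 6 rose and none fell (median log2 fold change 0.73), and in 12 of the 19 every HAse1.5 library was above every untreated one, against 12.7% of all tested genes. SPRY2, a feedback inhibitor of receptor tyrosine kinases, had 62.8, 71.9 and 36.9 CPM in untreated and 137, 166 and 147 CPM in treated libraries. The 3 lines rose to much the same level (log2 fold change 1.31, SE 0.25, adjusted p 0.00288). DUSP6, the phosphatase that switches off ERK, had 324, 587 and 308 CPM and 987, 1334 and 1016 CPM (log2 fold change 1.38, SE 0.27, adjusted p 0.00416). FGF10, a ligand of the second heart field, had 15.01, 8.88 and 18.8 CPM and 55.9, 66.5 and 52.96 CPM (log2 fold change 1.93, SE 0.49, adjusted p 0.0263). SPRY4, FGFR1 and SPRY1, a further pair of feedback inhibitors and a receptor, had log2 fold changes of 1.87, 0.85 and 1.27. The calls of SPRY2 and DUSP6 held in all 6 fits without 1 library. Those of FGF10 and SPRY1 were lost in each of the 6 (adjusted p up to 0.119 and 0.196), that of FGFR1 in all but the fit without the HAse1.5 library of line WT, and that of SPRY4 without either library of line TNNI1 or the untreated library of line TNNT2. The list's count was 2 without either library of line TNNI1, 3 without the untreated library of line WT or either library of line TNNT2, and 4 without the HAse1.5 library of line WT.

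Among 20 tested genes of BMP, TGF-beta and NODAL signalling BMPER and BMP4 rose and none fell. With DESeq2 2 rose and 2 fell, and without the filter on low counts 2 rose and 1 fell. BMPER, a secreted modulator of BMP, had 61.4, 65.7 and 72.3 CPM untreated and 136, 219.5 and 186 CPM treated, with tight groups (log2 fold change 1.36, SE 0.22, adjusted p 0.00075; held in all 6 fits without 1 library). BMP4 itself had 72.3, 137 and 149.5 CPM and 938, 389.8 and 733 CPM (log2 fold change 2.45, SE 0.66, adjusted p 0.0476); it was lost in every such fit but the one without the HAse1.5 library of line WT (adjusted p up to 0.234). Of 13 tested WNT pathway genes 1 rose and 1 fell (2 and 2 with the line as a block). WNT5A, a non-canonical ligand of the second heart field, rose from 75.1, 86.1 and 90.4 CPM to 118, 210.0 and 217 CPM (log2 fold change 1.03, SE 0.23, adjusted p 0.00904; adjusted p 0.0702 at most, without the untreated library of line TNNI1 or the HAse1.5 library of line TNNT2). The WNT inhibitor SFRP1 fell (log2 fold change −1.64, SE 0.42, adjusted p 0.032), a call lost without the HAse1.5 library of line TNNI1 or TNNT2 or the untreated library of line WT or TNNT2 (adjusted p up to 0.172). STRA6, the receptor for the retinol carrier, rose from 10.2, 25.8 and 20.9 CPM to 53.99, 53.6 and 96.03 CPM (log2 fold change 1.78, SE 0.39, adjusted p 0.00844; lost without the untreated library of line TNNI1 or the HAse1.5 library of line TNNT2, adjusted p up to 0.0829). LHX1, a LIM-homeobox factor of early mesoderm, had 152, 62.2 and 68.8 CPM and 1627, 189 and 899.8 CPM. The treated library of line TNNI1 held the most and that of line WT the least, though above the untreated ones (log2 fold change 3.16, SE 0.67, adjusted p 0.0111), and the call was lost without the HAse1.5 library of line TNNI1 or the untreated library of line WT or TNNT2 (adjusted p up to 0.0743). LHX1 was the only 1 of 10 tested primitive streak and presomitic mesoderm genes to pass (2 with the line as a block).

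**Figure D4:**
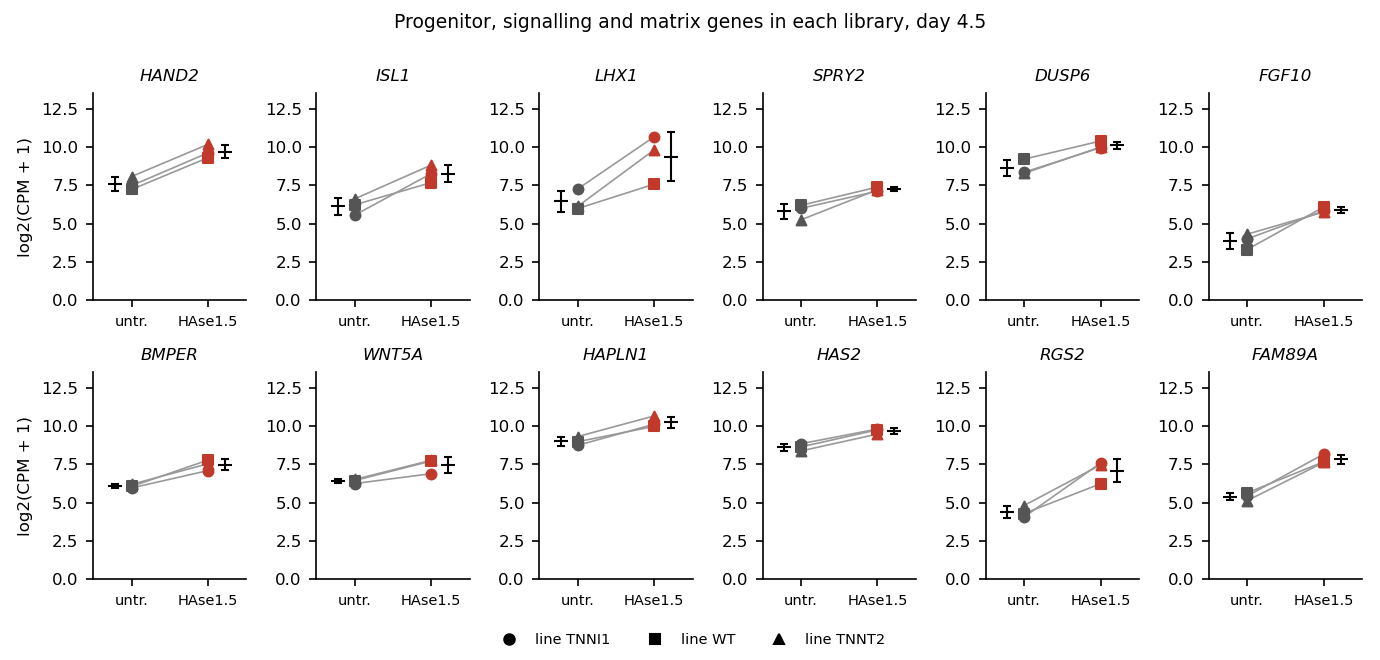
Log2(CPM + 1) of 12 progenitor, signalling and matrix genes in the 3 untreated (grey) and 3 HAse1.5 (red) libraries of day 4.5, with libraries of the same line joined; bars beside the points give the mean and SD of each group. The treated libraries of HAND2, SPRY2, BMPER and HAPLN1 lie above the untreated ones in every line, and those of LHX1 spread most, with line WT lowest; HAS2 is shown although it did not pass the test.

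Sterol synthesis genes fell together. Of 14 tested genes of cholesterol synthesis and uptake 12 fell, and in all 14 every HAse1.5 library lay below every untreated one, against 8.87% of all tested genes. The median log2 fold change was −1.28, and the line medians in log2 CPM were −1.35, −1.13 and −1.38 for lines TNNI1, WT and TNNT2. HMGCS1, which starts the mevalonate pathway, had 758, 788 and 764 CPM in untreated and 284, 289.5 and 259.6 CPM in HAse1.5 libraries (log2 fold change −1.55, SE 0.30, adjusted p 0.00416). DHCR7, the enzyme of the last step, had 92.8, 92.4 and 87.6 CPM and 16.8, 28.5 and 26.2 CPM (log2 fold change −2.02, SE 0.40, adjusted p 0.00414). Libraries of each group lay close together, line WT included. SQLE and FDPS, which make squalene epoxide and farnesyl diphosphate, had log2 fold changes of −1.32 and −1.14. The 4 named calls held in all 6 fits without 1 library, and the list's count was 6 to 9 in those fits, lowest without either library of line TNNI1. The gene ID of CYP51A1 had no count in the 6 libraries, and the reason was not tested.

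Genes of mitochondrial energy supply fell in part. Of 19 tested genes of fatty acid oxidation and the citric acid cycle 5 fell (9 with DESeq2, 8 without the filter on low counts and 3 in a fit of the 6 libraries alone; median log2 fold change −0.83). FABP3, the fatty acid carrier of heart muscle, had 60.7, 41.7 and 31.99 CPM untreated and 3.72, 6.05 and 7.57 CPM treated (log2 fold change −3.02, SE 0.48, adjusted p 0.000546). IDH2, mitochondrial isocitrate dehydrogenase, had 265, 149 and 147 CPM and 59.6, 85.6 and 65.2 CPM (log2 fold change −1.51, SE 0.26, adjusted p 0.00108). Both held in all 6 fits without 1 library. Of 19 tested nuclear-encoded respiratory chain genes 4 fell (9 with DESeq2 and 7 without the filter; median −0.69), with CYCS, cytochrome c, at 232, 184 and 210.0 CPM and 101, 146 and 116 CPM (log2 fold change −0.87, SE 0.18, adjusted p 0.00601). All 19 point estimates were below 0. In 15 of the 19 every HAse1.5 library lay below every untreated library, as for 8.87% of all tested genes. No respiratory chain call was left without either library of line TNNI1, where the count of the fatty acid and citric acid list was 2 (CYCS adjusted p up to 0.0601), and without the HAse1.5 library of line WT the latter count was 8. PDK1, a kinase that holds pyruvate back from the mitochondria, was the only 1 of 19 tested glycolysis and hypoxia genes to pass (3 with the line as a block, 4 without the filter and 2 in a fit of the 6 libraries alone), with 514, 454 and 398 CPM and 96.8, 201 and 109 CPM (log2 fold change −1.83, SE 0.40, adjusted p 0.0109; lost without either library of line TNNI1 or the HAse1.5 library of line TNNT2, adjusted p up to 0.084).

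Genes of the cell cycle did not pass the test in any member. None of 18 tested S phase genes, 22 mitosis genes and 6 D cyclins and CDK inhibitors was called, under edgeR, DESeq2 or the block on line, and 1 of them, in the last list, had an unadjusted p under 0.05. The 3 lines went different ways: the median difference in log2 CPM of the mitosis genes was 0.91 in line TNNI1, −1.07 in line WT and −0.29 in line TNNT2, and that of the S phase genes 1.31, −0.71 and 0.08. Summed mitosis genes were 2226 to 3865 CPM in untreated and 1506 to 5507 CPM in HAse1.5 libraries, highest in line TNNI1 and lowest in line WT. In the remaining lists 1 or 2 genes passed, none of them in every fit without 1 library. These were the integrin ITGA7 (log2 fold change −1.51; 12 tested), the mesenchymal homeobox factor PRRX1 (3.87; 7 tested), the guidance ligands SEMA3E (1.605) and SEMA3C (−1.85; 20 tested), and the nicotinic receptor subunit CHRNB4 (no count untreated, at least 6.89-fold higher against 3 counts over the untreated group; 3 tested). ITGA7 was lost without either library of line TNNI1 or the HAse1.5 library of line TNNT2 (adjusted p up to 0.2). The other 4 were lost without any 1 library except the HAse1.5 library of line WT (up to 0.222). None of 14 tested p53 and stress genes passed edgeR's test or DESeq2's, and none had an unadjusted p under 0.05, with log2 fold changes from −0.20 to 1.15.

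Outside the lists, A2M, PPP1R14C and CKM were among the 12 genes of at least 10 CPM in 1 group that fell furthest, and TUNAR and DIO2 among the 12 that rose furthest. A2M, the protease inhibitor alpha-2-macroglobulin, had 21.2, 24.9 and 8.35 CPM in untreated libraries and no count in the HAse1.5 libraries, at least 26.4-fold lower against 3 counts over the treated group (adjusted p 0.000147). PPP1R14C, an inhibitor of protein phosphatase 1, had 82.6, 42.6 and 27.8 CPM and 0, 0.864 and 1.75 CPM (log2 fold change −5.80, SE 0.90, adjusted p 0.00103). CKM, the muscle creatine kinase, had 93.5, 16.9 and 18.1 CPM and 3.10, 1.73 and 0.582 CPM (log2 fold change −4.62, SE 0.85, adjusted p 0.00271). These 3 calls held in all 6 fits without 1 library. On the other side TUNAR, a long non-coding RNA of pluripotent and neural cells, had 4.78, 1.78 and 2.78 CPM and 72.6, 19.01 and 23.3 CPM (log2 fold change 3.47, SE 0.57, adjusted p 0.000688). RGS2, FAM89A and PTPN13 rose less and are named because they also passed the test of early against late start, which uses the same HAse1.5 libraries. In that test the calls of RGS2 and FAM89A held in only 1 of 6 fits without 1 library (adjusted p up to 0.35 for both). RGS2, a regulator of G-protein signalling, had 15.7, 18.6 and 27.1 CPM and 192, 74.3 and 176 CPM (log2 fold change 2.76, SE 0.36, adjusted p 0.0001). FAM89A had 42.3, 48.8 and 34.1 CPM and 287, 203 and 197 CPM (log2 fold change 2.38, SE 0.33, adjusted p 0.000156), and PTPN13, a protein tyrosine phosphatase, 141, 168 and 183 CPM and 596, 358 and 377 CPM (log2 fold change 1.36, SE 0.20, adjusted p 0.00025). TUNAR and these 3 were higher in 3 of 3 lines with no overlap, and their calls against untreated held in all 6 fits without 1 library as well. DIO2, the deiodinase that activates thyroid hormone, rose from 1.36, 4.44 and 2.78 CPM to 30.4, 85.6 and 14.6 CPM (log2 fold change 3.84, SE 0.82, adjusted p 0.008). Its highest treated value was in line WT, and the adjusted p was 0.065 without the untreated library of line TNNI1.

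The effect was then set beside that of the same treatment at other days. These comparisons share lines but no library with that of day 4.5. At day 2.5, after 1 day of enzyme, 146 genes (1.15%) passed, 32 higher (0.251%) and 114 lower (0.894%), and 23 of the 307 genes lower at day 4.5 were already lower (7.49% of these and 20.2% of the 114 lower at day 2.5). Of the 136 higher genes 3 were already higher and 3 lower. LAMA1 and TBX5 were among the genes lower at both days (log2 fold changes at day 2.5 −2.41 and −3.74, adjusted p 2.02e-06 and 2.7e-05), as were ACTC1 (−3.23, adjusted p 0.00605) and MYL4 (−2.80, adjusted p 0.0175). At day 7.5, 425 genes (3.33%) passed, 180 higher (1.41%) and 245 lower (1.92%). Of the genes lower at day 4.5, 96 were lower (31.3% of these and 39.2% of those at day 7.5), and of the genes higher at day 4.5, 53 were higher (39.0% and 29.4%); none had changed sides. HAPLN1 (log2 fold change 2.90), LHX1 (4.11) and FAM89A (3.30) had larger values at day 7.5, whereas for ACTA2 (−0.77, adjusted p 0.432), CCDC80 (0.13, adjusted p 0.902) and RGS2 (0.75, adjusted p 0.474) the day 7.5 test was not passed. Differences between days 4.5 and 7.5 were not tested.

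Whether the effect at day 4.5 differed from that at day 2.5 was tested as a difference of the 2 contrasts. It passed for 90 of 12748 genes (0.706%), 62 (0.486%) with a higher and 28 (0.22%) with a lower effect at day 4.5. With the line as a block 148 genes passed. Of the 62, 23 were among the genes higher at day 4.5, and of the 28, 20 were among the genes lower at day 4.5. Over all tested genes these shares were 1.07% and 2.41%. The difference contains the day 4.5 contrast and its libraries, so an overlap is built in and gives no separate support. HAND2 had a log2 fold change of −1.25 at day 2.5 and 2.03 at day 4.5 (difference 3.28, SE 0.57, adjusted p 0.00541). RGS2 went from −1.55 at day 2.5 to 2.76 at day 4.5 (difference 4.31, SE 0.50, adjusted p 7.45e-05). PTPN13 went from −0.70 to 1.36 (difference 2.06, SE 0.28, adjusted p 0.000434) and BMPER from −0.69 to 1.36 (difference 2.05, SE 0.31, adjusted p 0.00196). Of the lower effects, that on CYCS went from 0.47 to −0.87 (difference −1.34, SE 0.26, adjusted p 0.00958). These 5 calls held in all 12 fits without 1 library, as did 32 of the 90. The count was 40 to 51 without the untreated library of line TNNI1 of day 4.5, of line WT or TNNT2 of day 2.5, or a HAse1.5 library of line TNNT2 of either day or of line TNNI1 of day 2.5, and 145 without the HAse1.5 library of line WT of day 2.5.

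With a start 1 day later fewer genes passed. By day 4.5 the HAse2.5 libraries had also had the enzyme for 1 day less, so start day and length of exposure cannot be told apart. The HAse2.5 libraries of day 4.5 were compared with the same untreated libraries, so both contrasts share their controls: 28 genes (0.22%) passed, 9 higher (0.0706%) and 19 lower (0.149%). The direct test of HAse1.5 against HAse2.5 called 46 genes (0.361%), 11 higher (0.0863%) and 35 lower (0.275%) with the earlier start. Of these, 7 and 30 were also called against untreated, as were 1.07% (higher) and 2.41% (lower) of all tested genes. Both tests use the same HAse1.5 libraries, so an overlap is built in and gives no separate support. MYOM1 had a log2 fold change of −5.03 with the early and −1.14 with the late start (difference −3.90, SE 0.61, adjusted p 0.0111). ACTA2 had −4.41 and −0.54 (difference −3.87, SE 0.55, adjusted p 0.00552), and PTPN13 1.36 and 0.02 (difference 1.34, SE 0.20, adjusted p 0.00552). Of these PTPN13 passed in all 6 fits without 1 library. ACTA2 was lost without the HAse1.5 library of line TNNT2 (adjusted p 0.0676), and MYOM1 without that of line TNNI1 or TNNT2 (up to 0.107). MYL7 (difference −3.68, adjusted p 0.0481) was lost without the HAse1.5 library of line TNNI1 or TNNT2, without the HAse2.5 library of line TNNI1 or WT, and with the line as a block (adjusted p 0.057). For SPRY2, KRT18, HAPLN1 and BMPER the early and late values were close: 1.31 and 1.29, −1.75 and −1.84, 1.18 and 1.09, and 1.36 and 1.29. Each of the 4 passed against untreated with either start, and the direct difference did not pass (95% interval of the difference −0.47 to 0.52, −0.46 to 0.63, −0.39 to 0.56 and −0.38 to 0.51). The count of 46 was 96 with the line as a block. It was 2 and 3 without the HAse1.5 library of line TNNT2 or TNNI1, 9, 12 and 26 without the HAse2.5 library of line TNNI1, WT or TNNT2, and 291 without the HAse1.5 library of line WT.

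The libraries labelled HAS2-KO offered a comparison in other cardioids. HAS2 counts were not lower in them at day 4.5 (log2 fold change −0.01, adjusted p 0.992), and a 3′ tag outside a deleted part checks nothing, so the label is used as given. At day 4.5, 516 of 13797 tested genes (3.74%) differed between HAS2-KO and WT, 157 higher (1.14%) and 359 lower (2.6%). Of the 306 genes lower with hyaluronidase and tested in both, 117 were lower in HAS2-KO (38.2% of these and 32.9% of the 356 lower in HAS2-KO) and 3 were higher. Of the 131 higher genes 21 were higher in HAS2-KO (16.03% and 15.0%) and none lower. The background in HAS2-KO was 2.83% lower and 1.11% higher of the genes tested in both. In the sterol list 11 of 14 tested genes fell in HAS2-KO (median log2 fold change −1.10), in the thick filament list 7 of 12 (−1.51), and in the FGF and ERK feedback list 1 fell and none rose. TAGLN, KRT18 and HMGCS1 had close values with hyaluronidase and in HAS2-KO: −3.51 and −3.56, −1.75 and −1.58, and −1.55 and −1.30.

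The difference between the hyaluronidase and the HAS2-KO effect, tested in 1 fit of both arms, passed for 38 of 14047 genes (0.271%), 3 higher (0.0214%) and 35 lower (0.249%) with hyaluronidase. NR2F2 fell with hyaluronidase (−2.998) and rose in HAS2-KO (2.45, adjusted p 0.000177), a difference of −5.48 (SE 0.77, adjusted p 2.34e-05). LAMA1 fell with hyaluronidase (−1.86) and had a value above 0 in HAS2-KO (0.45; difference −2.34, SE 0.45, adjusted p 0.00594). MYOM1 fell in both and further with hyaluronidase (−5.03 against −1.56; difference −3.47, SE 0.71, adjusted p 0.00903). TUNAR rose further with hyaluronidase (3.47 against 0.45; difference 3.004, SE 0.57, adjusted p 0.00485). NR2F2 passed in all 18 fits without 1 library. TUNAR was lost without the HAse1.5 library of line TNNI1 (adjusted p 0.136), LAMA1 without that of line TNNI1 or TNNT2 (up to 0.0824), and MYOM1 without those or the untreated library of line TNNI1 (up to 0.135). The count of 38 was 2 and 3 without the HAse1.5 library of line TNNI1 or TNNT2, 20 without the WT library named WT_TU_R1, 23 and 24 without the untreated library of line WT or TNNT2, and 78 without the HAse1.5 library of line WT. The 2 arms share no library, and how their lines and clones relate is not given in the sources used here.

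**Figure D5:**
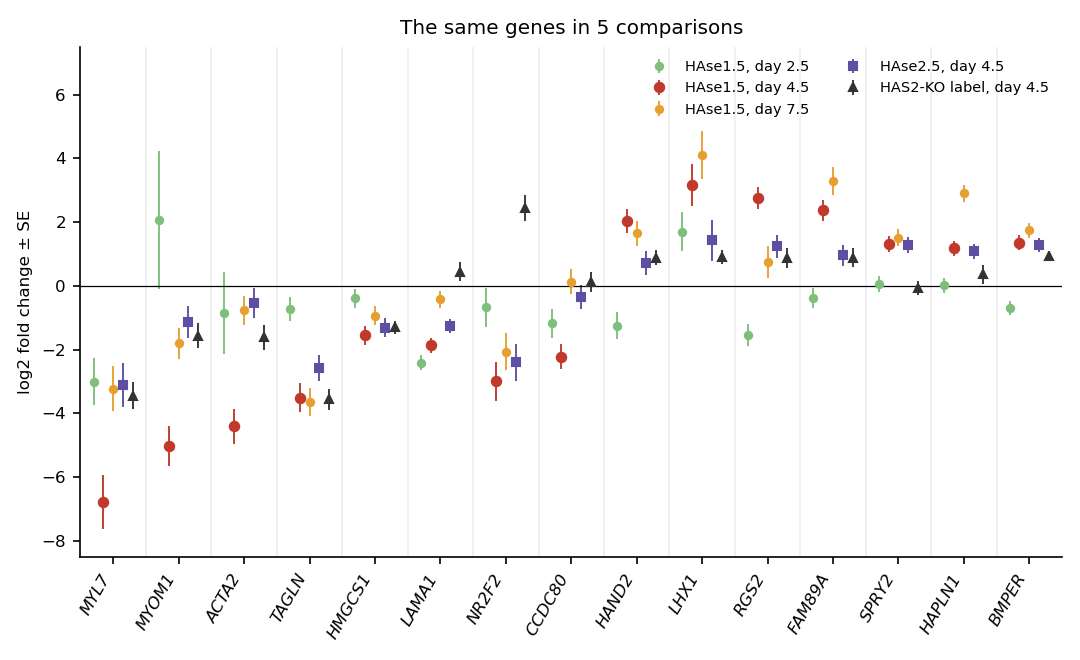
Log2 fold change (y axis, with SE bars) of 15 genes in 5 comparisons: HAse1.5 against untreated at days 2.5, 4.5 and 7.5, HAse2.5 against untreated at day 4.5 (same untreated libraries) and HAS2-KO against WT at day 4.5. MYL7, MYOM1 and ACTA2 were lowest with the early start at day 4.5, HMGCS1 and TAGLN had close values in HAS2-KO, and NR2F2 lay on opposite sides of 0.

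Most genes that fell with hyaluronidase were genes that rose in development without it. Between day 2.5 and day 4.5 of the WT libraries of the genotype arm, 2562 of 13797 tested genes rose (18.6%) and 2194 fell (15.9%). Among the 12566 genes tested in both fits these were 2454 (19.5%) and 1953 (15.5%). Of the 306 genes lower with hyaluronidase, 230 (75.2%) rose over this step and 10 fell. Of the 131 genes higher with hyaluronidase, 67 (51.1%) fell over the step and 21 rose. MYOM1 rose by a log2 fold change of 9.79, TNNC1 by 6.31 and MYL7 by 5.50, and RGS2 (−3.38), FAM89A (−2.75) and LHX1 (−2.70) fell. KRT18, lower with hyaluronidase, fell over the step (−0.67), and LAMA1 did not pass (−0.61, adjusted p 0.0954). HMGCS1 (0.13, adjusted p 0.68) did not pass either.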

How the data were processed

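The deposited counts per gene, made by the authors with featureCounts of Subread 1.6.2 on GRCh38 per the submitters' processing notes, come from 3′ tag libraries (QuantSeq 3′ mRNA FWD, single-end, per the labels' protocols); whether counting used strand is not given in the sources used here. The deposited table has 65 mapped columns of raw counts and 4 columns that match no sample and were not used. All 58735 gene IDs matched GENCODE 29 (GRCh38), which gave overlaps, and symbols are current ones where known.

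Genes with a minimum count of 10 by filterByExpr were tested in R 4.3.3 with edgeR 4.0.16 (TMM, robust quasi-likelihood test, Benjamini-Hochberg over all tested genes) on the 24 enzyme-arm libraries, 1 mean per group. The hyaluronidase and HAS2-KO effects were compared in 1 fit of both arms. CPM is counts over the library's total without TMM; log2 CPM within lines uses TMM and a prior count of 2. Alternatives were RLE factors, DESeq2 1.42.0, no filter, only the libraries compared, the line as a block, and leaving out each library. Replicate numbers name lines, so they pair libraries; deviations of same-line libraries correlated at −0.00298, 0.110 and 0.118. Replicates of a group differed by more than counting noise (chi-square over degrees of freedom 2.86 to 11.3). A group with no count gives a bound against 3 counts over the group, and one with 1 to 3 counts a ratio with a 95% interval; both cover counting error only, and no molecular identifiers are named for these reads.

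The comparison, the 42 gene lists and the tests were chosen with earlier results of these data known. Named genes are the tested hyaluronan synthesis genes, the 12 furthest each way of at least 10 CPM, the first 2 tested and 4 lowest-p called genes of each list, and up to 6 each way shared with the early-against-late test; which of them are described was chosen after their values were seen. FGFR1, SPRY1, COL8A1 and the genes of the closing paragraphs were named after their values were seen. Some genes that the rule names are not reported here.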

Additional observations from a re-analysis of the deposited data

Results flagged for a closer look

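The effect of hyaluronidase from day 1.5 differed between days 4.5 and 2.5 for 90 genes, by the test of the difference itself. Among the genes named in the text, the effect was higher at day 4.5 than at day 2.5, in difference of log2 fold changes, for DIO2 (6.16), RGS2 (4.31), TUNAR (4.29), HAND2 (3.28), GPC3 (2.996), FAM89A (2.75), SEMA3E (2.74), HAND2-AS1 (2.63), PTPN13 (2.06), BMPER (2.05), PKP2 (1.94) and WNT5A (1.92). It was lower at day 4.5 for CASZ1 (−3.11), MYL9 (−2.94), TAGLN (−2.78), SDC3 (−1.94), CDH2 (−1.46), CYCS (−1.34) and ANXA6 (−1.30). Of these genes, BMPER, CYCS, DIO2, FAM89A, HAND2, PTPN13, RGS2, TUNAR and WNT5A passed in all 12 fits without 1 library. The others held in fewer of the 12: HAND2-AS1 in 10, SDC3 in 9, and ANXA6, CASZ1 and TAGLN in 6. SEMA3E held in 5, CDH2 in 4, GPC3 and PKP2 in 3, and MYL9 in 1. PKP2 fell at both days and less at day 4.5 (log2 fold change −3.003 at day 2.5 and −1.06 at day 4.5). No explanation of these differences was tested.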

How the results depend on the processing

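The count of 443 genes became 440 with RLE size factors, 621 with DESeq2, 662 without the filter on low counts, 305 with only the 6 libraries, 585 with the line as a replicate block and 290 with both. Leaving out 1 library gave 199 to 487. The count of 90 for days 4.5 against 2.5 became 187 with DESeq2, 269 without the filter, 48 with only the libraries of the contrast and 148 with the replicate block, and 40 to 145 without 1 library. The count of 46 for early against late start became 167, 296, 26 and 96 under the same 4 settings, 143 with the block on only the libraries of the contrast, and 2 to 291 without 1 library. The count of 38 for hyaluronidase against HAS2-KO became 68 with DESeq2, 156 without the filter and 12 with only the libraries of the contrast; it was 37 with the replicate block and 2 to 78 without 1 library. The cause was not tested, except that fewer libraries enter some fits. With RLE size factors these 4 counts stayed within 1.5 times. With the line as a block MYL9 lost its call in the test of days 4.5 against 2.5 (adjusted p 0.0504). MYL7 lost its call in that of early against late start (adjusted p 0.057). In the comparison of HAse1.5 with untreated at day 4.5, fitted on the 24 libraries, pairing by line changed the calls of HAS2, CEMIP2 and NPPA and of no other gene named in the text. It moved list counts beyond those given above: lower calls became 11 for smooth-muscle-type actin, 8 for the thin filament, 7 for calcium handling, 6 each for the respiratory chain and YAP targets, and 5 each for chamber genes and the basement membrane, and higher calls became 3 for BMP, 2 for semaphorins and 1 for chamber genes. Over the 6 fits without 1 library HYAL2, not called, ranged from −0.19 to 0.23 and crossed 0. Of the tests of named genes, 166 of those without 1 library and 59 of the others lost a call, 3 and 9 gained one, and the rest kept their side of the threshold.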

Other observations

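The genes below, outside the lists except where a list is named, were picked after their values were seen, so they are descriptions and carry no independent support. IL1R1, IL18R1 and IL1RL1, receptor genes of the interleukin-1 family on chromosome 2, were higher with hyaluronidase; other receptors of the family were not counted. IL1R1, the interleukin-1 receptor, had 2.73, 2.66 and 3.48 CPM in untreated and 31.7, 6.05 and 28.5 CPM in HAse1.5 libraries (log2 fold change 2.79, SE 0.59, adjusted p 0.00691). IL18R1, the interleukin-18 receptor, had 1.36, 2.66 and 2.09 CPM and 19.9, 4.32 and 17.5 CPM (log2 fold change 2.68, SE 0.69, adjusted p 0.0308). IL1RL1, the interleukin-33 receptor, had no count in untreated libraries and 11.8, 1.73 and 8.15 CPM treated, at least 10.5-fold higher against 3 counts over the untreated group (adjusted p 0.0109). IL1RL1 and IL18R1 overlap on the same strand, so their reads may not be told apart. The treated library of line WT was the lowest treated one for all 3. The call of IL1R1 was lost without the HAse1.5 library of line TNNI1 (adjusted p 0.0516), that of IL1RL1 without either library of line TNNI1 (up to 0.0535), and that of IL18R1 without any 1 library except the HAse1.5 library of line WT (up to 0.165). Of 9 tested inflammation and interferon genes IL1RL1 rose and the interferon-induced IFIT1 fell (lost without the HAse1.5 library of line TNNI1 or TNNT2, up to 0.0813).

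Non-coding partners of 3 transcription factor genes were higher along with them. HAND2-AS1 had 48.5, 46.2 and 59.1 CPM untreated and 267, 184 and 329 CPM treated (log2 fold change 2.26, SE 0.32, adjusted p 0.000193), beside 2.03 for HAND2, and both calls held in all 6 fits without 1 library. LHX1-DT had a log2 fold change of 2.64 (SE 0.53, adjusted p 0.00522), beside 3.16 for LHX1 (lost without the HAse1.5 library of line TNNI1, 0.0516). GATA3-AS1 had 3.47 (SE 0.85, adjusted p 0.0204), beside 1.95 for GATA3, a zinc-finger factor. GATA3-AS1 was lost without any 1 library except the HAse1.5 library of line WT (up to 0.144), and GATA3 without either library of line TNNI1 or the untreated library of line WT or TNNT2 (up to 0.232). Whether the counting used strand is not given in the sources used here, so reads of a gene and an overlapping antisense partner cannot be told apart.

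The annexins ANXA2 and ANXA6 and the creatine kinases CKB and CKM were lower; other members of these families were not counted. ANXA2 had 101, 70.2 and 86.9 CPM untreated and 28.5, 11.2 and 11.1 CPM treated (log2 fold change −2.41, SE 0.43, adjusted p 0.00195), and ANXA6 had 689, 492 and 515 CPM and 193, 222 and 208 CPM (log2 fold change −1.53, SE 0.20, adjusted p 0.00011). CKB, the brain-type creatine kinase, had 303, 311 and 348 CPM and 67.6, 148 and 148 CPM (log2 fold change −1.48, SE 0.24, adjusted p 0.00075), beside −4.62 for the muscle-type CKM. Groups did not overlap for any of these 4 genes, and the calls held in all 6 fits without 1 library. CASZ1, a zinc-finger factor of heart development, had 143, 131 and 76.5 CPM and 5.59, 24.2 and 12.2 CPM (log2 fold change −3.19, SE 0.37, adjusted p 9.47e-05), with the lowest adjusted p of all 12748 genes.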
